A study of Drosophila melanogaster with 3 samples.

Results

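The 8 Hox genes of Drosophila melanogaster, lab, pb, Dfd, Scr, Antp, Ubx, abd-A and Abd-B, were examined for binding of Aef1, a zinc finger protein known to recognise CAACAA repeats. Each gene was taken as its annotated span plus 20 kb to either side, called its window here, and all 8 symbols matched 1 of the 13945 protein-coding genes on the main chromosome arms. The windows held 15 of 3495 peaks in replicate 1, 7 of 3126 in replicate 2 and 8 of 2942 in replicate 3. Merged where they overlapped, these peaks made 16 regions, of 4290 on the main arms, and 6 of the 16 were found in 3 replicates.

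The peaks came from chromatin immunoprecipitation and sequencing of whole embryos aged 0 to 24 h, in which a transgene supplies Aef1 joined to eGFP, and the fusion was pulled down with an antibody to GFP. The 3 biological replicates form 1 group, all carry the fusion, and neither input chromatin nor untagged embryos were analysed here. Embryos of all these ages and all their tissues were pooled, so binding in the segments that express a Hox gene cannot be told apart from binding elsewhere. Neither expression nor read depth was measured in the files used, and the depth behind each peak is unknown.

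Hox genes encode homeodomain transcription factors that give body segments their identity along the head-to-tail axis. In Drosophila they lie in 2 groups on chromosome arm 3R, the Antennapedia complex (lab, pb, Dfd, Scr and Antp) and the bithorax complex (Ubx, abd-A and Abd-B). Their order along the chromosome follows the order of the segments they control. Long stretches of introns and intergenic DNA hold their enhancers, insulators and Polycomb response elements, through which Polycomb group proteins keep each gene silent outside its own domain.

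The sequences shown are those at the summits of the regions found in 3 replicates, of the best-ranked region of each window that has any, and of HR13, the one region at a Hox start. They were read from the RefSeq Release 6 genome (dm6) and are given on its forward strand. Regions are numbered HR1 to HR16 along the arm. Capitals mark TAAT, the core of homeodomain sites, CAACAA, the Aef1 repeat unit, and GAGAG, bound by the GAGA factor that acts at many Polycomb response elements, each on either strand. HR1 lies past the 3′ end of lab, HR2 beside bcd in the pb window, HR3 and HR5 in introns of Antp, HR7 upstream of Antp, HR9 in an intron of Ubx and HR11 downstream of abd-A. Of HR13, at a start of Abd-B, only the bases upstream of the start are shown. Its summit and its CAACAA are not within the stretch shown. HR16, the strongest region, lies in a 5′ UTR and is not shown.
HR1, chr3R:6657503-6657603: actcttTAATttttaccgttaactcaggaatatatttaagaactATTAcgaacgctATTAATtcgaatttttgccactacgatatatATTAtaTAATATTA
HR2, chr3R:6759577-6759677: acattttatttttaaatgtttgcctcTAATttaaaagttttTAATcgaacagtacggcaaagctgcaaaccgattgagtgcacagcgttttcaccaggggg
HR3, chr3R:6912426-6912526: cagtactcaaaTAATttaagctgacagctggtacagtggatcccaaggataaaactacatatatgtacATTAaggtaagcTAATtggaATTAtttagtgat
HR5, chr3R:6920127-6920227: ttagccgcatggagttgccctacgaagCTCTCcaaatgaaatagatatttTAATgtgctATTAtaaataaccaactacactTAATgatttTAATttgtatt
HR7, chr3R:7000748-7000848: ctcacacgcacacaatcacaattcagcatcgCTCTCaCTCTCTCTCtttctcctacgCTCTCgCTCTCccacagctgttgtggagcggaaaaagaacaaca
HR9, chr3R:16704378-16704478: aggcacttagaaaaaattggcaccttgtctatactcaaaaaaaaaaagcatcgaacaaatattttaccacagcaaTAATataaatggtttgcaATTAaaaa
HR11, chr3R:16798805-16798905: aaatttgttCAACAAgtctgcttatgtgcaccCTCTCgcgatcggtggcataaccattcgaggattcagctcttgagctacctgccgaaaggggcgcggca
HR13, chr3R:16934243-16934280: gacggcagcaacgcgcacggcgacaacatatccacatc

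Peaks in the Hox windows lay mostly away from Hox starts. Of the 16 regions, 8 were inside the span of a Hox gene, in introns except for HR13. A further 4 were within 500 bp of the start of a protein-coding gene that is no Hox gene, and 1 was within 500 bp of a Hox start. The median distance from a region's summit to the nearest Hox start was 14694 bp, 10 regions lay more than 10 kb from one and 5 lay within 5 kb. To the nearest protein-coding start of any gene, the median was 2675 bp over the 16 Hox regions and 502 bp over all 4290 regions. Neither median was adjusted for how densely such starts lie.

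**Figure D1:**
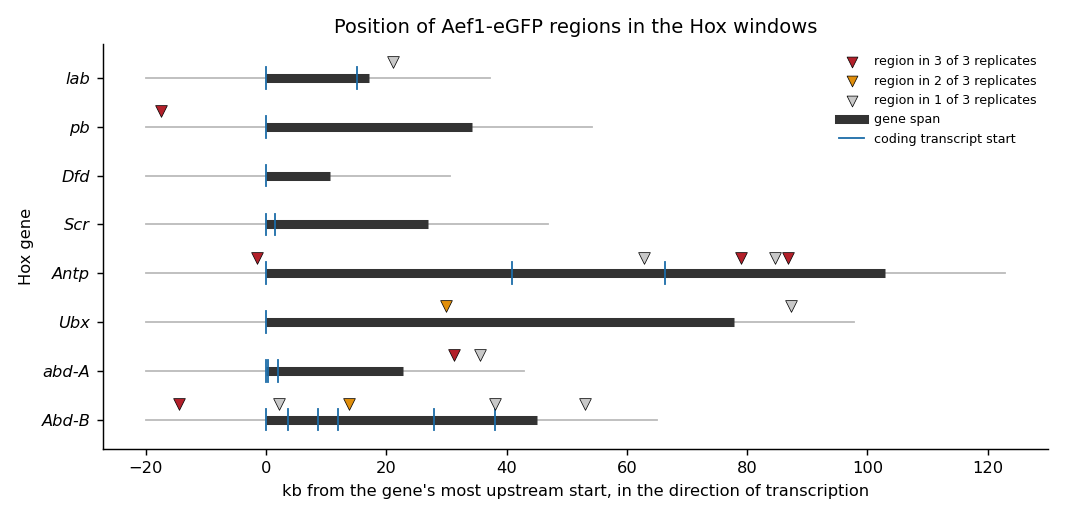
Position of the 16 regions (triangles, coloured by the number of replicates that list them) in the 8 Hox windows, in kb from each gene's most upstream start, with the gene span as a thick bar and coding transcript starts as blue ticks. Antp holds 3 of the 6 regions found in 3 replicates, Dfd and Scr hold none.

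lab (FBgn0002522, chr3R:6661427-6678590, minus strand), which specifies the intercalary segment of the head and part of the midgut, had 1 peak in its window in replicate 1 and 0 in replicates 2 and 3. That peak, HR1 (chr3R:6657395-6657710), lay 111 bp upstream of the start of CG1307 and 5901 bp from the nearer of the lab starts. Its signal, the value the authors' peak caller gives a peak on a scale that is not stated, was 38.1, rank 3389 of the 3495 in its list. It was thus among the weakest peaks listed.

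pb (FBgn0051481, chr3R:6707800-6742063, minus strand), which acts in the maxillary and labial segments that form the adult mouthparts, had 1 peak in each replicate. All 3 peaks formed HR2 (chr3R:6759428-6759798), 161 bp upstream of the start of bcd, the maternal gene for the anterior morphogen, and 17564 bp upstream of the pb start. The signal of HR2 was 88.4, 80.2 and 58 in replicates 1, 2 and 3, which placed it at rank 1332, 1157 and 1785. The region was in the stronger part of the list in replicates 1 and 2 and in the weaker part in replicate 3.

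Dfd (FBgn0000439, chr3R:6791836-6802428, plus strand), needed for the mandibular and maxillary segments, and Scr (FBgn0003339, chr3R:6823120-6849981, minus strand), needed for the labial segment, the first thoracic segment and the salivary glands, had 0 peaks in their windows in each of 3 replicates. In the full ranked lists the best-ranked peak of both windows was 1 shared peak, with its summit at chr3R:6818756 in replicate 1, except for Scr in replicate 3. IDR, the irreproducible discovery rate, is low for peaks whose rank repeats between a pair of peak calls, and the thresholded lists reach an IDR of 0.01. This peak had an IDR of 0.0108 in replicate 1, just outside the threshold, of 0.192 in replicate 2 and of 0.774 in replicate 3. The best-ranked peak of the Scr window in replicate 3 had its summit at chr3R:6869582, near the upstream end of that window, and an IDR of 0.0485.

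Antp (FBgn0260642, chr3R:6896253-6999228, minus strand), which specifies the thorax and is known for a distal and a proximal promoter, had 5 peaks in its window in replicate 1 and 3 in each of replicates 2 and 3. Of its 5 regions, 3 recurred in 3 replicates. HR3 (chr3R:6912321-6912649) and HR5 (chr3R:6920004-6920342) lay in introns, 20364 and 12663 bp downstream of the most downstream Antp start, and inside the overlapping gene model CG46458. HR7 (chr3R:7000628-7000955) lay 1570 bp upstream of the most upstream Antp start, in an exon of the noncoding RNA lncRNA:CR45899. Its summit was 306 bp downstream of the start of that RNA, which is not counted among the protein-coding starts. The signal of HR3 was 77.4, 53.4 and 45 in replicates 1, 2 and 3, that of HR5 was 72.4, 71.2 and 73.1, and that of HR7 was 82.7, 65.4 and 87.3. HR5 kept nearly the same signal in the 3 lists, while HR3 ranked from 1609 in replicate 1 to 2388 in replicate 3 and HR7 from 920 in replicate 3 to 1559 in replicate 2. The intronic regions HR4 and HR6 were listed in replicate 1 alone, at rank 2599 and 2045. In the ranked lists HR6 had an IDR of 0.0108 in replicate 2 and of 0.699 in replicate 3, and HR4 of 0.648 and 0.691.

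Ubx (FBgn0003944, chr3R:16656623-16734426, minus strand), which specifies the posterior thorax and first abdominal segment, had 2 peaks in its window in replicate 1, 1 in replicate 2 and 0 in replicate 3. HR9 (chr3R:16704270-16704589) was in a Ubx intron, 29998 bp downstream of the Ubx start. Its signal was 60.9 in replicate 1 and 47.2 in replicate 2, and replicate 3 had no overlapping peak even in its ranked list. HR8, in replicate 1 alone at rank 2903, lay 173 bp upstream of the start of CG10324 and 87249 bp downstream of the Ubx start.

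abd-A (FBgn0000014, chr3R:16807214-16830049, minus strand), which specifies abdominal segments, had 2 peaks in replicate 1 and 1 in each of replicates 2 and 3, with 0 inside the gene span. HR11 (chr3R:16798698-16799039) was intergenic, past the 3′ end of abd-A and 29250 bp from its nearest start. The signal of HR11 was 134, 74.3 and 95.6 in replicates 1, 2 and 3, ranks 670, 1304 and 801, so only HR16 had a lower mean rank among the 16. Its peak was 85 bp wide in replicate 1 and 310 bp wide in replicates 2 and 3. HR10, past the same end and in replicate 1 alone, had rank 1963.

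Abd-B (FBgn0000015, chr3R:16927212-16972236, minus strand), which specifies the most posterior abdominal segments and the genitalia, had 4 peaks in replicate 1, 1 in replicate 2 and 3 in replicate 3. HR16 (chr3R:16986547-16986760), 203 bp downstream of the start of the neighbouring gene CG18622 and 14411 bp upstream of Abd-B, was the strongest region of all the windows. Its signal was 260, 238 and 205 in replicates 1, 2 and 3. Its ranks were 192, 162 and 188, or rank fractions of 0.0549, 0.0518 and 0.0639 when divided by the length of the list. HR14 was in an Abd-B intron in replicates 1 and 3, at rank 3062 and 2575, and HR15 in an intron in replicate 1 at rank 3154. HR12, at rank 1862 of replicate 1, was in an intron of the noncoding RNA lncRNA:iab8.

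HR13 (chr3R:16934075-16934384) was the single thresholded peak at a Hox start. It was listed in replicate 3 alone, with a signal of 46.5, rank 2316 and an IDR of 0.00225, and its summit lay 12 bp downstream of the most downstream Abd-B start. At the same start the ranked list of replicate 1 held a peak of IDR 0.559, and that of replicate 2 held none.

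By the number of thresholded peaks per 100 kb of window, the members stood in the order Abd-B, Antp, abd-A, pb, Ubx, lab, and last Dfd and Scr. Abd-B had 4.7, 1.18 and 3.53 peaks per 100 kb in replicates 1, 2 and 3, a mean of 3.14 ± 1.8 (SD, n = 3). Antp had 3.5, 2.1 and 2.1, a mean of 2.56 ± 0.808, and abd-A had 3.18, 1.59 and 1.59, a mean of 2.12 ± 0.919. pb had 1.35 in each replicate. Ubx had 1.7, 0.849 and 0, a mean of 0.849 ± 0.849, and lab had 1.75 in replicate 1 and 0 in the others, a mean of 0.583 ± 1.01. The replicate ranges of neighbours in this order overlapped, except that the lowest abd-A value lay above pb, where both rest on 1 peak in windows of 62.8 and 74.3 kb. Over all 13945 protein-coding genes the median was 2.62 peaks per 100 kb, with quartiles of 0.782 and 5.44, and 21.9% of genes had 0 peaks in every replicate, as Dfd and Scr did. Abd-B was the single Hox gene above that median, and lab, Dfd and Scr lay under the lower quartile.

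**Figure D2:**
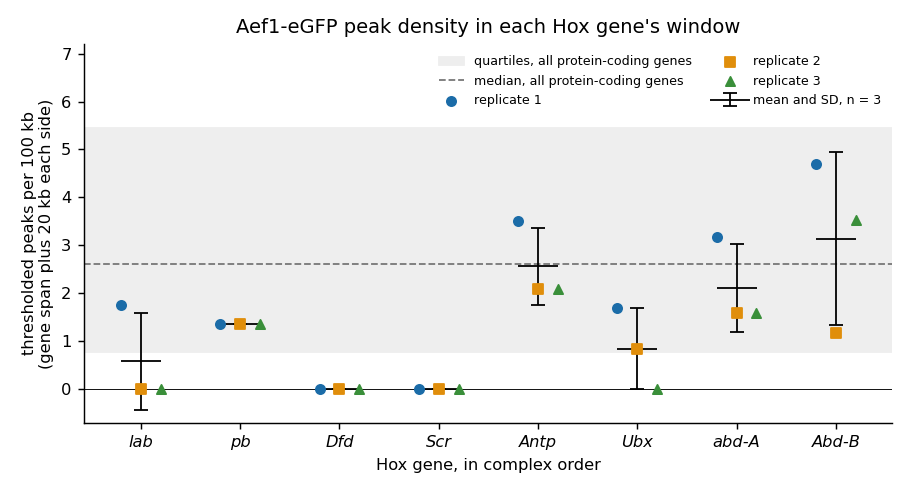
Thresholded peaks per 100 kb in the window of each Hox gene, by replicate (points) with the mean and SD of 3 replicates (bars), beside the median (dashed line) and quartiles (grey band) of all protein-coding genes. Only Abd-B, at 3.14, has a mean above the median of 2.62.

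Taking the call rules gene by gene, 0 of 8 Hox genes had a peak within 500 bp of a start in 3 of 3 replicates, where 11.3% of all protein-coding genes did. With at least 1 replicate required the count was 1 of 8, Abd-B, against 19.8%. A peak within the gene span in 3 of 3 replicates was found in 1 of 8, Antp, against 9.65%. A peak in the window in 3 of 3 replicates was found for 4 of 8 (pb, Antp, abd-A and Abd-B), against 61.5%, and in at least 1 replicate for 6 of 8, against 78.1%. With 8 genes these shares are coarse, and windows of neighbouring members overlap. Longer windows hold more peaks, and the Hox windows run from 50.6 kb for Dfd to 143 kb for Antp. The shares of all genes were not matched for length or for number of starts. Of the 4 members with a recurrent region in the window, Antp alone kept it when the window was cut to the gene span, since the regions of pb, abd-A and Abd-B lay in the flanks.

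As a group, the Hox windows, 627 kb of sequence once merged, had fewer thresholded peaks than the rest of the main arms in 3 of 3 replicates. In replicate 1 the density was 2.39 peaks per 100 kb in the Hox windows and 2.6 elsewhere. In replicate 2 it was 1.12 and 2.32, and in replicate 3 it was 1.28 and 2.19. The mean was 1.59 ± 0.695 against 2.37 ± 0.212 (SD, n = 3), a difference of -0.779 ± 0.511. A two-sided exact sign-flip permutation test over the 3 replicates gave p = 0.25, adjusted 0.333 over 4 such tests by the Benjamini-Hochberg method. With 3 replicates 0.25 is the smallest p this test can give, so the design cannot reach 0.05. The test returns 0.25 whenever the 3 differences share a sign, whatever their size. All 3 replicates score the same windows, so the test says nothing on how other windows of the genome vary. The gap in replicate 1 was small beside those in replicates 2 and 3, and the rest of arm 3R alone had 2.39, 2.09 and 1.95 peaks per 100 kb, equal to the Hox windows in replicate 1.

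The full ranked lists, which add peaks of any IDR, went the other way, in a comparison chosen after the data were seen. They held 23.9, 38.1 and 37.6 peaks per 100 kb in the Hox windows against 21.6, 32.2 and 36.1 elsewhere. The Hox windows were higher in 3 of 3 replicates, by 3.25 ± 2.33 (SD, n = 3; exact sign-flip permutation p = 0.25, adjusted 0.333).

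A smaller share of the Hox peaks lay within 500 bp of a protein-coding start. The share was 26.7% against 51.1% of all other peaks in replicate 1, 28.6% against 51.3% in replicate 2, and 37.5% against 54.2% in replicate 3. The Hox share was lower in 3 of 3 replicates, at a mean difference, Hox minus other, of -21.3 ± 4.08 percentage points (SD, n = 3), with an exact two-sided sign-flip permutation p of 0.25, adjusted 0.333. These shares rest on 4, 2 and 3 Hox peaks, which are HR13 in replicate 3 and otherwise the regions at CG1307, bcd, CG10324 and CG18622. The shares were not adjusted for how densely protein-coding starts lie in the Hox windows and elsewhere. Whether the difference goes beyond that density was not tested.

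**Figure D3:**
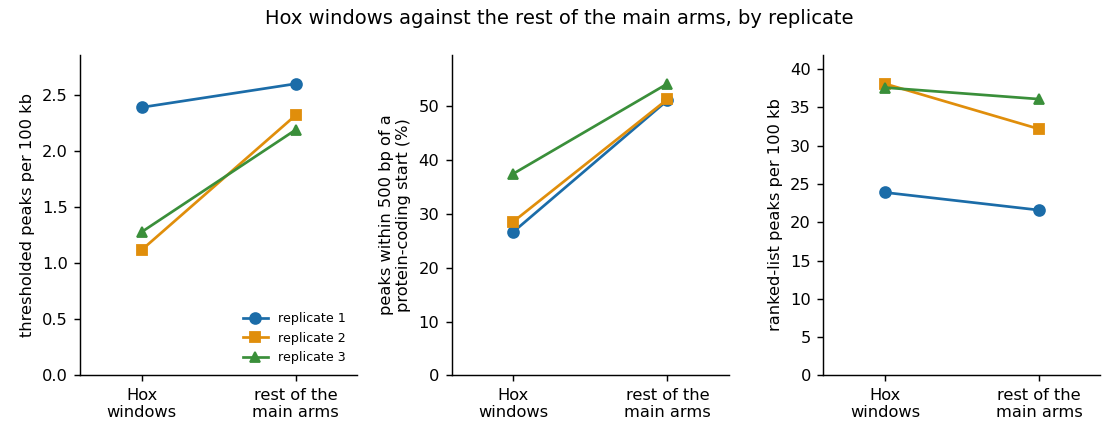
Hox windows and the rest of the main arms joined by a line for each replicate, for thresholded peaks per 100 kb (left), the percentage of thresholded peaks within 500 bp of a protein-coding start (middle) and ranked-list peaks per 100 kb (right). The lines rise to the right in the first and second panels and fall in the third.

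Within a thresholded list the Hox peaks were on average of ordinary strength, which depended on the threshold. The rank fraction, which runs from near 0 for the strongest peak of a list to 1 for the weakest, averaged 0.577, 0.458 and 0.519 over the Hox peaks of replicates 1, 2 and 3, and 0.499 over the other peaks of each. The difference of 0.0186 ± 0.0594 (SD, n = 3) was positive in 2 of 3 replicates (exact sign-flip permutation p = 0.75, adjusted 0.75) and was -0.0108 without replicate 1. With ranked peaks up to an IDR of 0.05 it was 0.0925 ± 0.00794 (SD, n = 3; exact sign-flip permutation p = 0.25). Hox peaks were then the weaker in 3 of 3 replicates. Up to an IDR of 0.001 the difference was 0.0431 ± 0.0713. HR16 apart, replicates 2 and 3 had no Hox peak in the strongest 25% of their lists, and replicate 1 had HR11.

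The 16 regions split by recurrence, with 6 in 3 replicates, 2 in 2 and 8 in 1. Of the 8 found once, 7 were in replicate 1, whose Hox peaks made up 0.43% of its list against 0.226% and 0.274% in replicates 2 and 3. Over the main arms 48.5% of regions were in 3 replicates, and of the Hox regions 37.5%. A region was missing from a replicate's thresholded list 18 times, and in 14 of these the replicate's ranked list held an overlapping peak, at an IDR from 0.0107 to 0.775. HR1 and HR15 in replicate 3 and HR6 in replicate 2 were the closest to the threshold, at 0.0107, 0.0107 and 0.0108. HR16 reached the lowest value in these lists, 1.00e-05, in 3 replicates, and HR11 reached it in replicates 1 and 3.

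**Figure D4:**
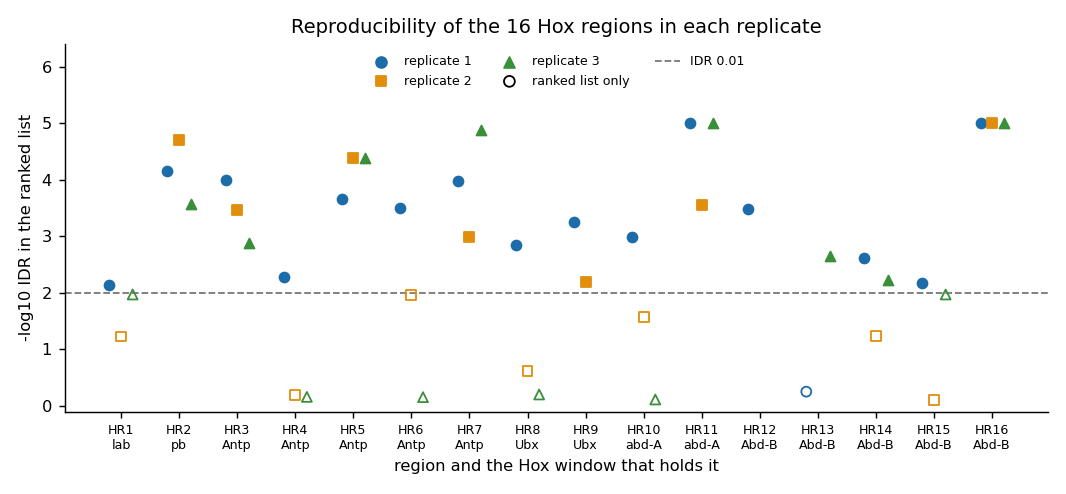
The -log10 IDR of each Hox region in the ranked list of each replicate, filled where the thresholded list also holds the peak and open where it does not, with the IDR of 0.01 as a dashed line. HR2, HR3, HR5, HR7, HR11 and HR16 lie above the line in 3 replicates, and no mark is drawn where a replicate has no overlapping peak.

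The weak signal at the starts themselves was read from the ranked lists. The 8 genes have 19 distinct coding transcript starts, and a ranked peak lay within 500 bp of 8 of them in each replicate. Of the 19, 2 had one in 3 replicates, 7 in 2, 4 in 1 and 6 in 0. Counted by gene, 3 of 8 had a ranked peak at a start in 3 of 3 replicates, against 30.4% of all protein-coding genes. These were Dfd, Antp and Scr, the last by its first start in replicates 1 and 2 and its second in replicates 2 and 3. The rule lets any start of a gene count in each replicate, for all genes alike. In at least 1 replicate, 7 of 8 had a ranked peak at a start, against 68.9%. pb was the exception, with no ranked peak at its start in any replicate. Without replicate 1, 5 genes had a ranked peak at a start in both remaining replicates.

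The most reproducible of these was at the third Antp start, the most downstream one, at chr3R:6932840. The ranked peak there lay 207, 288 and 157 bp upstream of the start in replicates 1, 2 and 3, with an IDR of 0.0148, 0.0875 and 0.0311 and a signal of 39.4, 26.2 and 34.8. It stood within the strongest 13.9%, 13.3% and 7.66% of the ranked lists and fell short of the threshold in each. At the first Antp start, chr3R:6999228, only replicate 1 had a ranked peak, with an IDR of 0.189.

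The Dfd start, chr3R:6791836, had a ranked peak 345, 327 and 281 bp upstream, with an IDR of 0.041, 0.46 and 0.778. At the other starts, HR13 apart, the lowest IDR was 0.166, at the first Abd-B start in replicate 1, where replicate 3 gave 0.881. The Ubx start had peaks of IDR 0.769 in replicate 2 and 0.763 in replicate 3 and none in replicate 1. At the Scr starts the values lay between 0.82 and 0.881, at the second lab start they were 0.548 and 0.881, and at the third abd-A start replicate 2 gave 0.461.

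**Figure D5:**
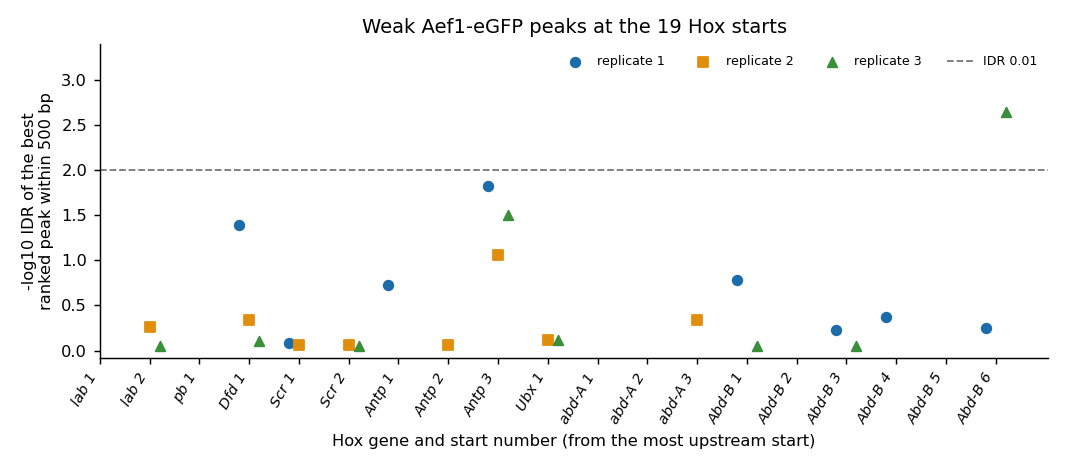
The -log10 IDR of the best ranked peak within 500 bp of each of the 19 Hox starts, by replicate, with starts numbered from the most upstream and the IDR of 0.01 as a dashed line. A single mark, the sixth Abd-B start in replicate 3 at an IDR of 0.00225, lies above the line, and the third Antp start comes closest to it in 3 replicates.

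The Aef1 repeat unit was sought at the summits of the Hox regions. Within 50 bp of the summit, CAACAA on either strand occurred in 2 of the 16 regions, HR11 and HR13, where it occurred in 17.7% of the 2081 regions found in 3 replicates over the main arms and in 13.7% of equal windows centred 500 bp from those summits. Without replicate 3 the count was 0, since HR13 is listed there alone and the summit of HR11 shifts. Over the 6 Hox regions found in 3 replicates the count was 1, and 1 of 32 windows beside the Hox regions held CAACAA. The tandem form CAACAACAA occurred in 0 of 16, and in 5.05% of the 2081.

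TAAT occurred in 10 of 16 Hox regions and in 3 of the 6 found in 3 replicates, against 75.7% of the 2081, and in 18 of 32 windows beside the Hox regions. GAGAG matched in 5 of 16 (HR4, HR5, HR7, HR11 and HR12), and 3 of the 6, against 9.61% of the 2081, and 5 of 32 windows beside the Hox regions. HR7, upstream of Antp, held 6 matches to GAGAG, as its capitals show, and no TAAT. The letters CCCTC, found in sites of the insulator protein CTCF, matched 1 of 16 and 1 of the 6, against 6.44%, and 2 of 32 windows beside the Hox regions. The letters GCCAT, found in sites of the Polycomb group protein Pho, matched 1 of 16 and 1 of the 6, against 13.5%, and 12 of 32 windows beside the Hox regions. GC content over these stretches averaged 37.5% ± 11.4 (SD) in the 16 Hox regions and 34.3% ± 10.3 in the 2081. In equal windows centred 500 bp from the summits of the 2081, TAAT occurred in 55%, GAGAG in 14.5%, CCCTC in 10.6% and GCCAT in 18.3%. These matches are counts of letters and were given no test.

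By complex, the windows of the Antennapedia complex held 7, 4 and 4 peaks, or 1.38 ± 0.479 per 100 kb (SD, n = 3), and those of the bithorax complex 8, 3 and 4, or 1.88 ± 0.996. Their replicate values overlapped. The 2 stretches between the windows of the Antennapedia complex, of only 9.77 and 6.27 kb, held 0 peaks in each replicate. Between the Ubx and abd-A windows, a stretch of 32.8 kb where lncRNA:bxd lies, replicate 1 alone had 1 peak. Between the abd-A and Abd-B windows, a stretch of 57.2 kb that holds the microRNA genes mir-iab-4 and mir-iab-8, each replicate had 1 peak, with summits at chr3R:16869371, 16869396 and 16869466 and ranks of 2715, 2544 and 2671. This recurrent region lay outside the windows and was not counted among the 16. The stretches differ in length, so their counts do not compare the complexes.

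Other genes of the complexes and of the Hox network were counted by the same rules. Of 13 neighbours in the complexes, 1, bcd, had a peak at a start in 3 replicates, and 10 had a peak in the window in 3, where 11.3% and 61.5% of all protein-coding genes did. The windows of the neighbours overlap one another and those of the Hox genes, so the counts are not independent. Several neighbours are noncoding RNA genes, among them lncRNA:bxd, mir-iab-4 and mir-iab-8. The values of protein-coding genes are thus not a like background for this list. Of 8 cofactors and partners, 1, hth, the partner that brings Exd to the nucleus, had a peak at a start in 3 replicates, at a rank fraction of 0.157, 0.183 and 0.0921, and 4 had one in the window, beside the same 11.3% and 61.5%. exd itself had 0 peaks in its window. cad, the homeobox gene of the posterior embryo, had 7, 6 and 5 peaks in its window and none at a start.

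Of 10 genes known as Hox targets in embryos, cnn had a peak at a start in 3 replicates and Dll, the limb gene that Ubx and abd-A repress in the abdomen, in 2, and 4 had one in the window in 3, beside 11.3% and 61.5% of all protein-coding genes. Of 47 other homeobox genes, 5 had a peak at a start in 3 replicates, and 23 had one in the window, close to 11.3% at a start and below 61.5% in the window. Those with the strongest peaks were oc, unc-4, tin and al, at a mean rank fraction of 0.113, 0.117, 0.119 and 0.211. The median density was 1.1 peaks per 100 kb over the 8 Hox genes, 2.34 over the neighbours, 1.58 over the cofactors, 1.09 over the targets and 1.49 over the other homeobox genes, each under the 2.62 of all protein-coding genes.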

How the data were processed

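Per the labels, chromatin from Aef1-eGFP embryos was sheared by sonication and precipitated with anti-GFP, in 3 biological replicates of 1 group. For each replicate the authors deposited a ranked and a thresholded peak list on dm6. Which aligner and peak caller made them is not given in the sources used here. Peaks are ordered within a list by the deposited signal, whose scale is unstated. The deposited score of the thresholded lists runs from 830 to 1000, which puts their limit at an IDR of 0.01. The deposited ranked lists give the −log10 of the IDR per peak.

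Peaks off the main arms (9, 22 and 18) were left out of comparisons. Gene models were Ensembl release 115 on BDGP6.54. Peaks sharing at least 1 bp were merged across replicates, a summit within 500 bp of a coding start counted as at it, and motifs were sought within 50 bp of summits. Differences across replicates were tested by two-sided exact sign-flip permutation. The code was tested on simulated lists. The Hox genes, gene lists and motifs were chosen with earlier results of these data known. All Hox genes and all regions in 3 replicates are named, with up to 4 bound genes of each list with the lowest mean rank fraction. Regions in fewer replicates, exd, cad, Dll and the sequences of HR3 and HR5 were added after values were seen. Alternatives covered windows, IDR thresholds, overlap rules, promoter and motif widths, the 4 whole-series lists and each replicate left out. Computations used pandas 2.3.3 and numpy 2.4.6 under Python 3.11.15, with matplotlib 3.10.9 for plots.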

Additional observations from a re-analysis of the deposited data

Results flagged for a closer look

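A further 4 thresholded lists, deposited for the whole series, went into none of the comparisons above, and which replicates each one draws on is not stated. They held 20, 20, 12 and 15 peaks in the Hox windows, of 4971, 4566, 4375 and 4533 in all, in 21 regions. Of these regions, 6 were in no replicate's own thresholded list, and 2 of the 6 were in 4 of 4 whole-series lists. The first (chr3R:6818546-6818895) lies between Dfd and Scr, the pair with no thresholded peak in any replicate, and had an IDR of 0.0108, 0.192 and 0.774 in the ranked lists of replicates 1, 2 and 3. The second (chr3R:6932858-6933207) has its summit 193 bp upstream of the third Antp start, where the IDR was 0.0148, 0.0875 and 0.0311. The other 4 were upstream of the second lab start, past the Antp starts, inside the Abd-B span and upstream of Abd-B, each in 1 to 3 of the lists.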

How the results depend on the processing

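The mean of 10 thresholded peaks in Hox windows became 4.67 with the gene spans alone, 6 with 5 kb flanks, 6.33 and 16.3 with ranked peaks at an IDR of 0.001 and 0.05, 16.8 in the whole-series lists and 208 with all ranked peaks. The mean density difference kept its direction in every alternative but the last, where it was 3.25 per 100 kb. At an IDR of 0.05 it was -0.55 ± 0.676 per 100 kb (SD, n = 3; exact sign-flip permutation p = 0.5). There the 3 replicates did not share a direction. Regions in 3 replicates numbered 2 in the gene spans and 3 with 5 kb flanks, and genes with a window peak in 3 replicates numbered 1 under both. The whole-series lists gave 1 Hox gene, Antp, with a peak at a start in all 4. Hox regions with CAACAA numbered 1 and 4 at an IDR of 0.001 and 0.05, 0 with a motif window of 25 bp, and, counted over shared regions alone, 0 at 50% reciprocal overlap and 1 in at least 2 replicates. With starts widened by 250 bp in place of 500, 0 Hox genes had a ranked peak at a start in 3 replicates. Leaving out each replicate in turn moved the mean rank difference from -0.0108 to 0.0486, the CAACAA count from 0 to 2, and the genes with a ranked peak at a start from 3 to 5. It kept the lower density (-1.06 to -0.564 per 100 kb) and the lower promoter share (-23.6 to -19.7 percentage points). With 1 group there were no samples to pair across groups. Without read counts, what depth adds to missing peaks was not tested.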
